A study of Homo sapiens with 4 samples.

Results

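Platelet-derived growth factors (PDGF) and their receptors were examined in 2 human melanoma cell lines transfected with an siRNA that targets ZIC5, a transcription factor with zinc fingers. The 7 genes were the ligands PDGFA, PDGFB, PDGFC and PDGFD, the receptors PDGFRA and PDGFRB, and the receptor-like protein PDGFRL. They were chosen by name, and every probe set that named 1 of them in the platform's annotation was taken. This gave 16 probe sets of 54613 on the array, and 7 genes of 19775 with a probe set of their own. The study proposed PDGFD as a target of ZIC5, so PDGFD was a member because of that interest.

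RNA had been collected 48 h after transfection from A375 with ZIC5 siRNA, A375 with negative control siRNA, SK-MEL-28 with ZIC5 siRNA and SK-MEL-28 with negative control siRNA. Each of these 4 groups was 1 array (HG-U133 Plus 2.0), and the labels describe the material as cultured cells. Both lines are established melanoma lines that carry an activating BRAF mutation. The labels name 1 ZIC5 siRNA condition and no second siRNA, so all values below describe these arrays of these lines.

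PDGF ligands act as disulphide-linked dimers that bind receptor tyrosine kinases on the cell surface. PDGFA and PDGFB are cut to their active form inside the cell by furin-like enzymes, while PDGFC and PDGFD are secreted with a CUB domain that blocks receptor binding until a protease outside the cell removes it. PDGFRA takes ligands A, B and C and PDGFRB takes B and D, and the receptors then recruit adaptors, PI3-kinase and phosphatases. In melanoma this family is known for growth signals that tumour cells send to themselves and to the surrounding stroma, and PDGFRB is known for its rise in cells that have become resistant to BRAF inhibitors.

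PDGFD stood out for the response to ZIC5 siRNA, being several-fold lower in both lines, and PDGFC for the difference between the lines. The region before the annotated start of PDGFD is shown because this gene was the study's proposed ZIC5 target. It covers the 250 bases upstream of the start, from RefSeq (GRCh38.p14, minus strand, chr11:104164148-104164397), written 5′ to 3′ with each CG dinucleotide in capitals.
PDGFD: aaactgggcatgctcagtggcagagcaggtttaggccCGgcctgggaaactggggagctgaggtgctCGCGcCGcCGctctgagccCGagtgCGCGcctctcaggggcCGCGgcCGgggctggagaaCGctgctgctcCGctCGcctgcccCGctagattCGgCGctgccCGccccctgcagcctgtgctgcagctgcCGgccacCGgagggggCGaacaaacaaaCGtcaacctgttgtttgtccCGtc

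This stretch holds 23 CG dinucleotides and 69.2% G and C. In the full window of 300 bases, which adds the first 50 transcribed bases, G and C made up 67.3%, against a median of 58.7% over 35116 promoters of that length. The GLI-type site GACCACCCA, which ZIC proteins can bind, was searched on both strands and was not in this window, and 0.236% of all promoters held it. The shorter CCTGCTG, also searched on both strands, was not in this window either, and 10.5% of all promoters held it. Neither sequence was in the 4 PDGFA, 2 PDGFRA and 1 PDGFRB promoter windows. No window of PDGFB, PDGFC or PDGFRL was searched. The absence of a match says only that these letters are not in these windows.

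The targeted gene was read first. ZIC5 has 1 probe set, with an intensity of 14.1 with ZIC5 siRNA and 16.8 with control siRNA in A375 cells, and of 15.5 with ZIC5 siRNA and 21.4 with control siRNA in SK-MEL-28. These values lay under the level minimum, a mean log2 intensity of 5 (intensity 32), so they give no check on the labels. The arrays had median intensities between 38.4 and 39.4. Of 9 melanocyte lineage markers with a probe set, SOX10 and S100B were well above the minimum on all arrays, with SOX10 at 1660 and 895 on the A375 arrays and at 1919 and 2135 on the SK-MEL-28 arrays (ZIC5 siRNA, then control siRNA). MLANA, a melanosome protein, was at 17.0 and 13.9 in A375 against 17273 and 18212 in SK-MEL-28 in the same order, so it was under the level minimum in A375 only. TYRP1 was also under it on both A375 arrays (8.10 and 7.51). TYR and GPR143 were under it on the A375 ZIC5 siRNA array (26.7 and 16.7) and just above it on the A375 control array (33.5 and 33.4). PMEL was just above it in A375 (35.9 and 32.4), and MITF and MC1R were well above it on all arrays.

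Levels and differences below are log2 intensity or intensity of single arrays, and each gene is represented by the probe set with its highest mean. The siRNA difference is ZIC5 siRNA minus control siRNA in the same line. With 1 array per group it has no replicate check and no test. A limma fit with terms for siRNA and line gave the mean over both lines, so the lines are its only replicates. Of the 7 genes 6 reached the level minimum on that probe set, as did 13794 genes in all, and 7 of the 16 probe sets did.

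PDGFD, which signals mainly through PDGFRB, had an intensity of 30.2 with ZIC5 siRNA and 155 with control siRNA in A375. In SK-MEL-28 it was at 107 with ZIC5 siRNA and at 366 with control siRNA. In each line the ZIC5 siRNA array was therefore the low one, and the SK-MEL-28 array with ZIC5 siRNA was still under the A375 control array. In order, the SK-MEL-28 control array was highest, then the A375 control, the SK-MEL-28 ZIC5 siRNA and the A375 ZIC5 siRNA arrays, and with single arrays no spread can be set against the steps of this order. PDGFD was 5.14-fold lower with ZIC5 siRNA in A375 (log2 difference -2.36), or at least 4.84-fold with the low array counted at the minimum of 32, and 3.44-fold lower in SK-MEL-28 (-1.78). On RNA of whole cultures, fewer cells that express a gene and less RNA per cell cannot be told apart.

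Among the 13794 genes analysed, PDGFD was the 11th from the lowest difference in A375 and the 40th in SK-MEL-28. By the mean over the lines it was the 10th from the lowest. It was the 1 member of 6 at least 2-fold lower in A375, where 5.05% of genes were, and the 1 member at least 2-fold lower in SK-MEL-28, where 2.12% were. In both lines at once 1.15% of genes were that much lower. At least 2-fold higher were 0 members in either line, where 3.89% of genes were in A375 cells and 0.776% in SK-MEL-28 cells.

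The mean PDGFD difference over the lines was -2.07 (SE 0.22, 95% interval -2.70 to -1.44, limma, 2 lines). Its unadjusted p was 0.000918, the 39th lowest of all genes, and its limma adjusted p over all genes was 0.268, a value it shared with 189 other genes as the lowest of the fit. Over all genes the fit called 0.0% at an adjusted p under 0.05, and 13.2% had an unadjusted p under 0.05. The PDGFD difference is thus large and of one sign in both lines but did not pass the adjusted threshold.

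PDGFD has a second probe set (222860_s_at), which was dimmer, with a mean log2 of 4.60. Its intensity was 14.0 with ZIC5 siRNA and 22.8 with control siRNA in A375, and 30.1 and 36.0 in the SK-MEL-28 line in the same order. It ran in the same direction as the brighter probe set (219304_s_at) in both lines but with smaller differences, -0.70 in A375 and -0.26 in SK-MEL-28. Averaged over both probe sets, the log2 differences of PDGFD were -1.53 for A375 and -1.02 for SK-MEL-28. The size of the difference thus depends on the probe set, while its sign did not.

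**Figure D1:**
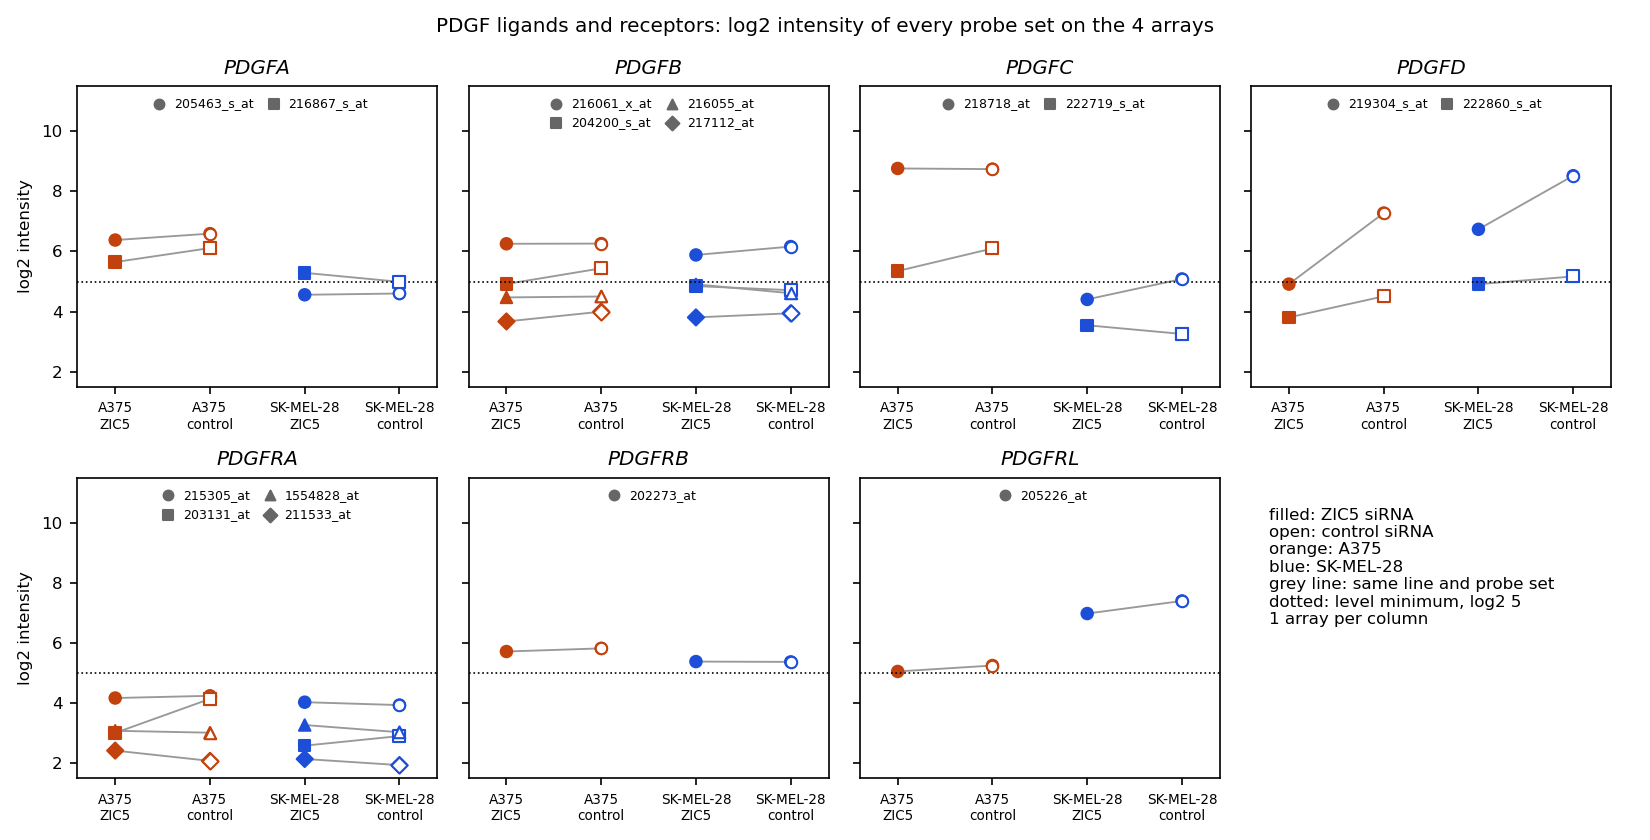
Log2 intensity (vertical axis) of all 16 probe sets of the 7 genes on each array, with ZIC5 siRNA filled and control siRNA open, A375 in orange and SK-MEL-28 in blue. The bright PDGFD probe set lies lower with ZIC5 siRNA in both lines (intensity 30.2 against 155 and 107 against 366), and the bright PDGFC probe set is high in A375 alone.

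The other ligands showed small siRNA differences. PDGFC, which binds PDGFRA, had 433 with ZIC5 siRNA and 427 with control siRNA in A375, so the siRNAs differed by 0.02 there. In SK-MEL-28 it had 21.2 with ZIC5 siRNA and 34.0 with control siRNA, a difference of -0.68 between values near the level minimum. With intensities under 32 set to 32, that difference was -0.09.

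The second PDGFC probe set (222719_s_at) was under the level minimum, with a mean log2 of 4.56, and had the opposite sign in each line. It had 40.8 with ZIC5 siRNA and 68.6 with control siRNA in A375 (-0.75). It had 11.7 with ZIC5 siRNA and 9.56 with control siRNA in SK-MEL-28 (0.29). Both of these SK-MEL-28 values lay far under 32, and the 0.02 of the bright probe set in A375 was near 0. The probe sets of PDGFC therefore settle no direction in either line. Over both lines the limma mean of PDGFC was -0.33 (SE 0.25, 95% interval -1.02 to 0.36, adjusted p = 0.575).

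PDGFA, a ligand of PDGFRA, had 83.2 with ZIC5 siRNA and 96.5 with control siRNA in A375, and 23.6 with ZIC5 siRNA and 24.3 with control siRNA in SK-MEL-28, differences of -0.21 and -0.04. Its second probe set (216867_s_at), nearly as bright, had 50.1 with ZIC5 siRNA and 69.2 with control siRNA in A375 (-0.47). The values of that probe set in SK-MEL-28 were 39.1 with ZIC5 siRNA and 31.8 with control siRNA (0.30). Both PDGFA probe sets were lower with ZIC5 siRNA in A375, and they had opposite signs in SK-MEL-28. The limma mean was -0.13 (SE 0.15, 95% interval -0.55 to 0.29, adjusted p = 0.713).

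PDGFB, which binds both receptors, was represented by a probe set of the x type (216061_x_at), a class whose probes can also match other transcripts. It had 76.4 with ZIC5 siRNA and 76.7 with control siRNA in A375, and 59.0 with ZIC5 siRNA and 71.6 with control siRNA in SK-MEL-28, differences of -0.01 and -0.28. The other 3 PDGFB probe sets were under the level minimum, and with the first they made 4 of 4 lower in A375 and 2 of 4 lower in SK-MEL-28. The limma mean was -0.14 (SE 0.17, 95% interval -0.62 to 0.34, adjusted p = 0.724).

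PDGFRB, the receptor for PDGFD, was nearly level between the siRNAs. It had 52.5 with ZIC5 siRNA and 56.5 with control siRNA in A375, and 41.7 with ZIC5 siRNA and 41.4 with control siRNA in SK-MEL-28. Its differences were -0.10 and 0.01, and the limma mean was -0.05 (SE 0.15, 95% interval -0.46 to 0.36, adjusted p = 0.899). The interval leaves room for a difference of either sign well under 2-fold.

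PDGFRA was under the level minimum with all 4 of its probe sets and entered no test. Over the 4 arrays they fell at percentiles from 1.13 up to 31.6 of the probe sets of the array. Its probe set with the highest mean (215305_at) had 18.0 with ZIC5 siRNA and 18.9 with control siRNA in A375, and 16.3 with ZIC5 siRNA and 15.3 with control siRNA in SK-MEL-28. A further one (203131_at) had 8.05 with ZIC5 siRNA and 17.6 with control siRNA in A375 (-1.13), and 6.0 with ZIC5 siRNA and 7.49 with control siRNA in SK-MEL-28 (-0.32). The remaining 2 PDGFRA probe sets were slightly higher with ZIC5 siRNA in both lines, so the receptor's probe sets had no common sign.

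PDGFRL, a secreted protein that resembles the ligand-binding part of a PDGF receptor and has no kinase, had 33.2 with ZIC5 siRNA and 38.0 with control siRNA in A375. In SK-MEL-28 it had 126 with ZIC5 siRNA and 168 with control siRNA. The ZIC5 siRNA array was the lower one in both lines, by -0.20 and -0.42. The limma mean was -0.31 (SE 0.17, 95% interval -0.78 to 0.16, adjusted p = 0.472).

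**Figure D2:**
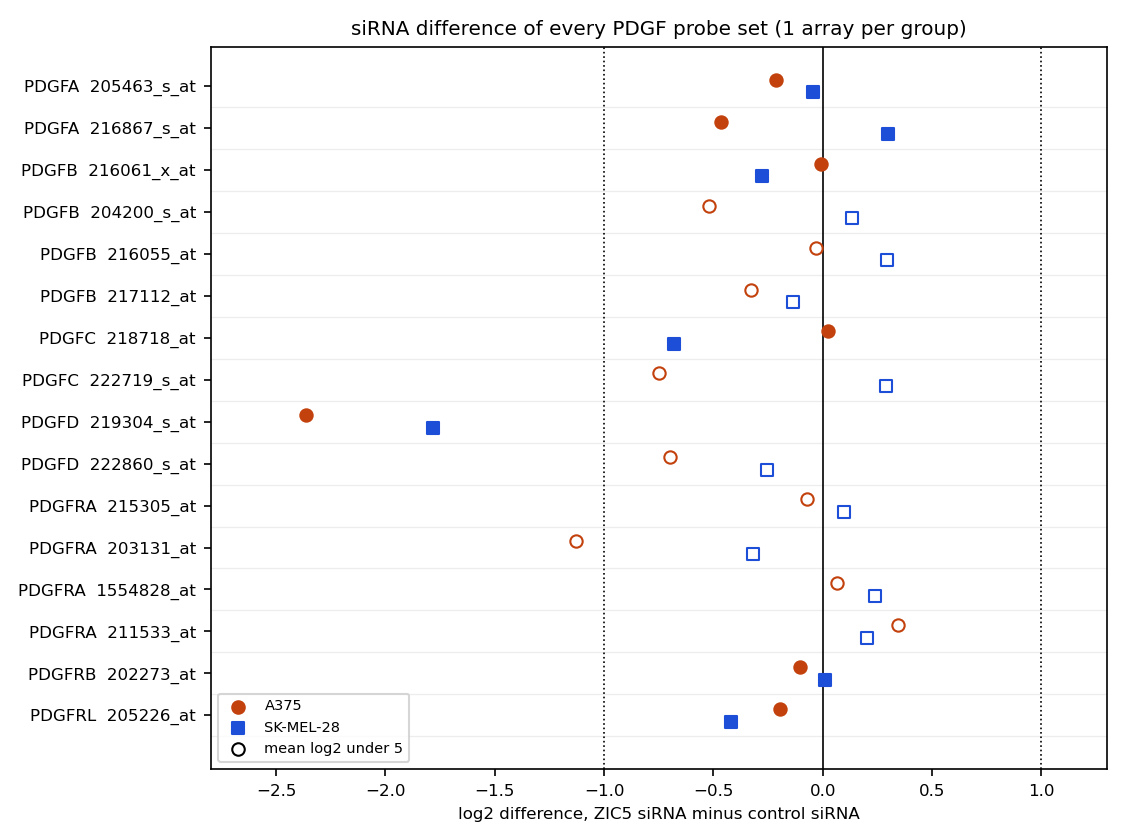
Log2 difference, ZIC5 siRNA minus control siRNA (horizontal axis), of each probe set in A375 (circles) and SK-MEL-28 (squares), open where the mean log2 intensity is under 5 and with dotted lines at 2-fold. The bright PDGFD probe set lies at -2.36 and -1.78, and 1 other point, a dim PDGFRA probe set in A375 at -1.13, lies beyond 2-fold.

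Counted over all 16 probe sets, 13 were lower with ZIC5 siRNA in A375 and 8 in SK-MEL-28. In both lines 7 were lower, 2 were higher in both and 7 had opposite signs. Over all 54613 probe sets of the array, dim ones included as they are here, 51.2% were lower in A375, 48.7% in SK-MEL-28 and 29.9% in both. By gene, 5 of the 6 members at the level minimum were lower in A375, where 51.2% of the analysed genes were. In SK-MEL-28 5 were lower, where 49.6% of genes were, and 4 were lower in both lines, where 32.5% were. Over the 6 members at the level minimum the median difference was -0.15 for A375 and -0.35 for SK-MEL-28, against -0.01 and 0.00 over all genes. Without PDGFD the members ranged from -0.21 to 0.02 in the A375 comparison and from -0.68 to 0.01 in the SK-MEL-28 comparison.

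**Figure D3:**
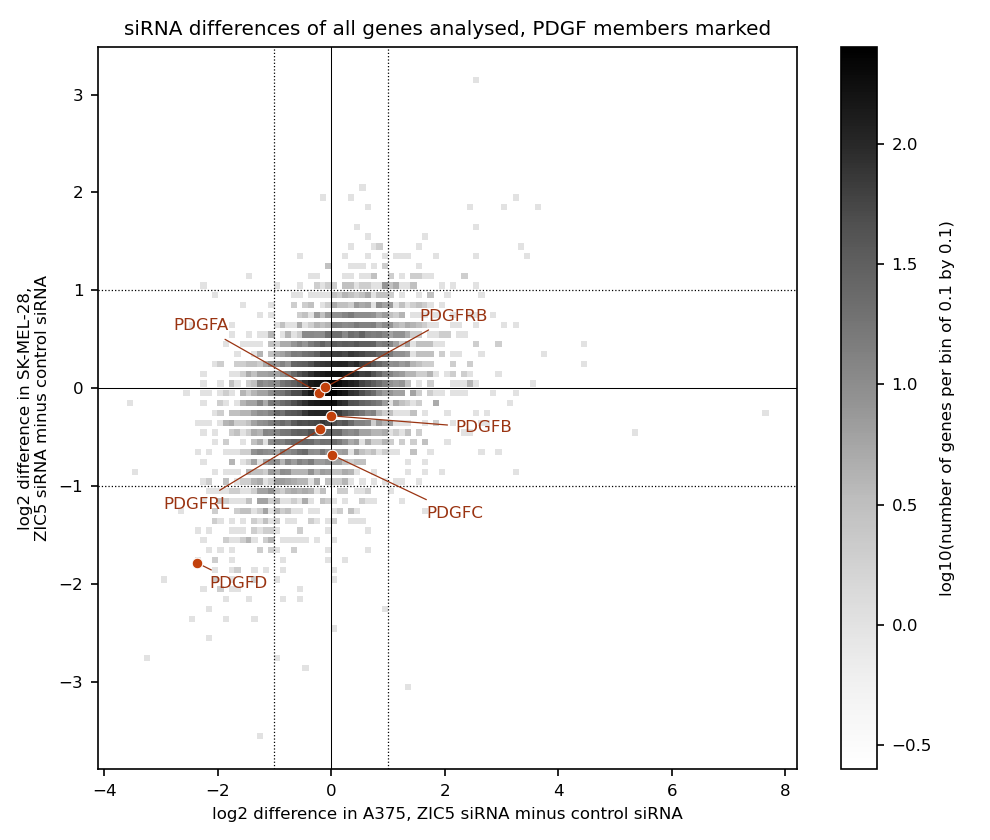
The siRNA difference in A375 (horizontal axis) and in SK-MEL-28 (vertical axis), both log2, with the number of genes per bin in grey and the 6 members at the level minimum as orange points. PDGFD lies at -2.36 and -1.78 at the low corner, and the other 5 lie inside the dotted lines at 2-fold.

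The genes most like PDGFD over the 4 arrays were taken by the distance between log2 profiles, each centred on its own mean. The nearest was PNMA2, with a distance of 0.40 log2 units, followed by DZIP3 (0.42), GPR160 (0.49), TLCD4 (0.56), ZNF362 (0.56), ITGA4 (0.61), TPD52 (0.63) and SLC25A43 (0.64). ITGA4, the integrin subunit alpha 4, had 74.0 with ZIC5 siRNA and 385 with control siRNA in A375, and in SK-MEL-28 it had 199 with ZIC5 siRNA and 549 with control siRNA. Its pattern over the arrays follows from how these genes were chosen. Of the other 5 members PDGFRL was the closest to PDGFD, at 1.88 and the 704th of 13793 genes ranked, and the remaining 4 lay between the 7027th and the 13651st.

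The line comparison gave calls among the members, where the siRNA comparison gave none. The limma line difference, A375 minus SK-MEL-28 over both siRNAs, passed an adjusted p under 0.05 for 4 of the 6 members, where 27.7% of all genes passed. PDGFC and PDGFA were higher in A375, as 14.2% of genes were, and PDGFD and PDGFRL were lower in A375, as 13.4% of genes were. The replicates of this comparison are the 2 siRNA conditions of each line. Its p-values thus measure how far the line difference varied between the siRNAs, with an error variance that limma moderates across genes.

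PDGFC showed the largest line difference among the members. With ZIC5 siRNA its intensity was 433 in A375 cells against 21.2 in SK-MEL-28 cells, and with control siRNA 427 in A375 cells against 34.0 in SK-MEL-28 cells. The SK-MEL-28 array with ZIC5 siRNA was under the level minimum, and counted at that minimum (32) PDGFC was at least 13.5-fold higher in A375 with ZIC5 siRNA. With control siRNA it was 12.6-fold higher in A375. The limma difference was 4.0 (SE 0.25, 95% interval 3.31 to 4.69, adjusted p = 0.00442), the 107th largest in that direction of all genes, and 3.71 with intensities under 32 set to 32 (limma adjusted p = 0.00383). The dimmer PDGFC probe set was under the level minimum on both SK-MEL-28 arrays, so its A375 values were at least 1.27-fold higher with ZIC5 siRNA and at least 2.14-fold higher with control siRNA.

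PDGFA was under the level minimum on both SK-MEL-28 arrays (23.6 and 24.3), so it was at least 2.60-fold higher in A375 with ZIC5 siRNA and at least 3.02-fold higher with control siRNA. Its limma difference was 1.90 (SE 0.15, 95% interval 1.49 to 2.32, adjusted p = 0.00675), and 1.49 with intensities under 32 set to 32 (limma adjusted p = 0.00916). The second PDGFA probe set gave a smaller one, 0.74 (SE 0.25), with an adjusted p of 0.179 when limma tested every probe set on its own. In that limma fit the brighter PDGFA probe set had an adjusted p of 0.0208. Tested alone, 1 of the 2 PDGFA probe sets thus passed. The mean of both passed as well (1.32, limma adjusted p = 0.0121).

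PDGFD was lower in A375 than in SK-MEL-28, at least 3.33-fold with ZIC5 siRNA, where the A375 value of 30.2 was just under the level minimum, and 2.36-fold with control siRNA. Its limma difference was -1.53 (SE 0.22, 95% interval -2.16 to -0.90, adjusted p = 0.0201). The dimmer PDGFD probe set, under the minimum on 3 of the 4 arrays, was also lower in A375 with each siRNA. When limma tested every probe set on its own, it had an adjusted p of 0.0764, against 0.0458 for the brighter one. Tested alone, 1 of the 2 PDGFD probe sets thus passed. The mean of both passed as well (-1.21, limma adjusted p = 0.0163). PDGFRL was also lower in A375, 3.80-fold with ZIC5 siRNA and 4.43-fold with control siRNA, with a limma difference of -2.04 (SE 0.17, adjusted p = 0.00724). PDGFB and PDGFRB did not pass, with differences of 0.24 (95% interval -0.25 to 0.72, limma adjusted p = 0.373) and 0.39 (-0.02 to 0.80, limma adjusted p = 0.13).

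**Figure D4:**
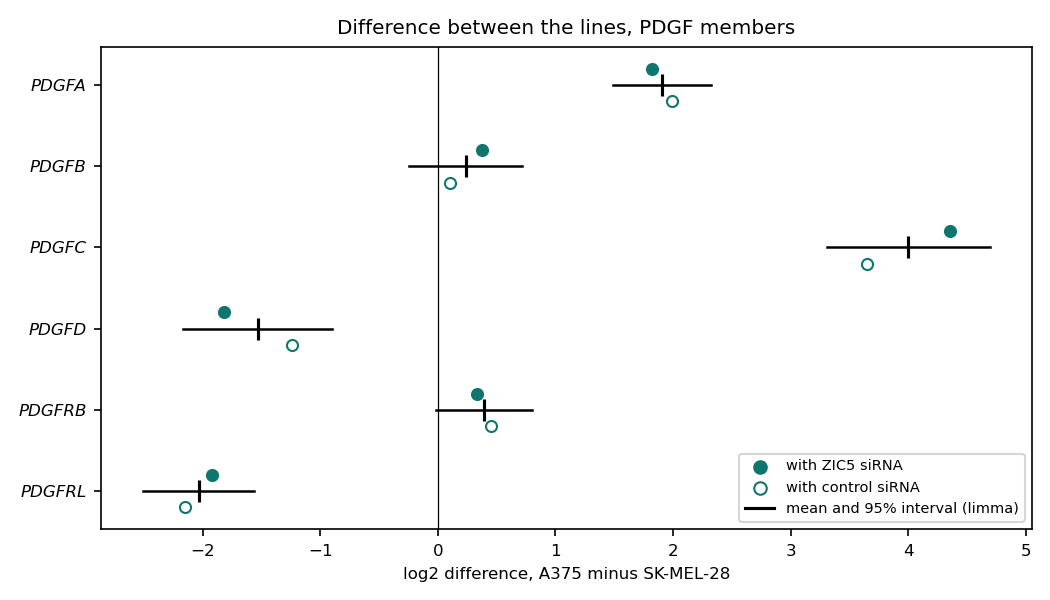
Log2 difference, A375 minus SK-MEL-28 (horizontal axis), with ZIC5 siRNA (filled) and with control siRNA (open), and the limma mean with its 95% interval (bar). PDGFC and PDGFA lie on the side of A375, PDGFD and PDGFRL on that of SK-MEL-28, and the intervals of PDGFB and PDGFRB include 0.

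Lineage markers moved with the line as well. Of 9 melanocyte lineage markers analysed, 8 passed the limma line test, all lower in A375, where 13.4% of all genes were, and the summed intensity of the list was 2483 and 1891 in A375 (ZIC5 siRNA, then control siRNA), against 45495 and 48829 in SK-MEL-28. Their part in the line differences of the PDGF genes was not tested. Whether the siRNA response differs between the lines could not be tested either. Measured as the A375 siRNA difference minus that in SK-MEL-28, it was -0.58 for PDGFD, 0.70 for PDGFC, -0.17 for PDGFA, 0.27 for PDGFB, -0.11 for PDGFRB and 0.22 for PDGFRL.

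Other genes of the pathway were read from lists made for the steps that surround the ligands and receptors. Their counts stand against all genes, of which 3.89% passed 2-fold upward and 5.05% downward in A375 with ZIC5 siRNA. In SK-MEL-28 0.776% passed it upward and 2.12% downward, so a count of 0 in a short list says little there. The line test was passed by 27.7% of all genes (14.2% higher and 13.4% lower in A375). Among co-receptors and PDGF-binding proteins, NRP1, a co-receptor that PDGFD can engage, was the 1 gene of 8 at least 2-fold higher in both lines, where 0.312% of all genes were. Its intensity was 2037 with ZIC5 siRNA and 919 with control siRNA in A375, and 138 with ZIC5 siRNA and 65.4 with control siRNA in SK-MEL-28. That is 2.22-fold higher in A375 and 2.12-fold higher in SK-MEL-28, and both of its probe sets that reach the level minimum were higher in each line. PDGFD and NRP1 thus lay on opposite sides in both lines. The limma mean of NRP1 was 1.11 (SE 0.17, adjusted p = 0.268). NRP1 was also higher in A375 than in SK-MEL-28 (line difference 3.85, SE 0.17, limma adjusted p = 0.00289).

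In the same list ITGB3, the integrin beta 3 subunit, was the 1 gene at least 2-fold lower in A375. It had 155 with ZIC5 siRNA and 327 with control siRNA in A375, and in SK-MEL-28 it had 516 with ZIC5 siRNA and 916 with control siRNA. It was named after its values were seen. The median over the 8 genes was -0.02 for A375 and -0.12 for SK-MEL-28. Of its 8 genes 6 passed the limma line test, 2 higher and 4 lower in A375, where 27.7% of all genes passed.

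The proteases that release the ligands, with their inhibitors, held 9 genes at the level minimum, of which 0 were 2-fold higher or lower in either line. PLAU, the urokinase that can activate PDGFD, had 30.2 with ZIC5 siRNA and 56.2 with control siRNA in A375, and 24.9 with ZIC5 siRNA and 29.5 with control siRNA in SK-MEL-28. PLAT, the tissue plasminogen activator that can activate PDGFC, had 735 with ZIC5 siRNA and 768 with control siRNA in A375, and 1690 with ZIC5 siRNA and 3292 with control siRNA in SK-MEL-28. SERPINE2, a protease inhibitor, differed by -0.14 and -0.84. PLAU, PLAT and SERPINE2 were lower with ZIC5 siRNA in both lines, and the median over the list was 0.11 for A375 and -0.09 for SK-MEL-28.

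Of 28 genes for signalling next to the receptor, 2 passed 2-fold upward and 1 downward in A375, and 0 passed it in SK-MEL-28. PTPN11, a phosphatase that docks on activated PDGF receptors and relays their signal, had 1443 with ZIC5 siRNA and 2973 with control siRNA in A375, and 1184 with ZIC5 siRNA and 2271 with control siRNA in SK-MEL-28. Its differences were -1.04 and -0.94, with a limma mean of -0.99 (SE 0.13, adjusted p = 0.268), and of its 4 probe sets that reach the level minimum 4 were lower in A375, as were 3 in SK-MEL-28. The adaptor GRB10 was higher in A375 (426 against 80.4 with control siRNA, a difference of 2.40) and differed by 0.29 in SK-MEL-28. FYN, a kinase of the SRC family, differed by 1.10 and 0.27. The list median was 0.08 and 0.10, and 14 of the 28 genes passed the limma line test, 2 higher and 12 lower in A375, against 14.2% and 13.4% of all genes.

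Among 11 genes that switch the receptor off, CBLB, a ubiquitin ligase, was the 1 gene at least 2-fold higher in A375, with 379 with ZIC5 siRNA and 82.5 with control siRNA. In SK-MEL-28 CBLB had 550 with ZIC5 siRNA and 328 with control siRNA, a difference of 0.75. PTPRK, a receptor phosphatase, differed by 0.95 and 0.26, and SH3KBP1, an adaptor of CBL proteins, by 0.75 and 0.39. CBLB, PTPRK and SH3KBP1, the 3 with the greatest mean difference, were higher with ZIC5 siRNA in both lines. Other genes of the list went the other way. Of the 11 genes 3 were lower in A375 and 5 in SK-MEL-28, where 51.2% and 49.6% of all analysed genes were. The median over the list was 0.38 for A375 and 0.12 for SK-MEL-28. Over these 4 lists together the limma fit called 0 genes for the siRNA at an adjusted p under 0.05, and at an unadjusted p under 0.05 it gave 7 of 56 genes (12.5%), 5 higher and 2 lower, close to the 13.2% of all genes.

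**Figure D5:**
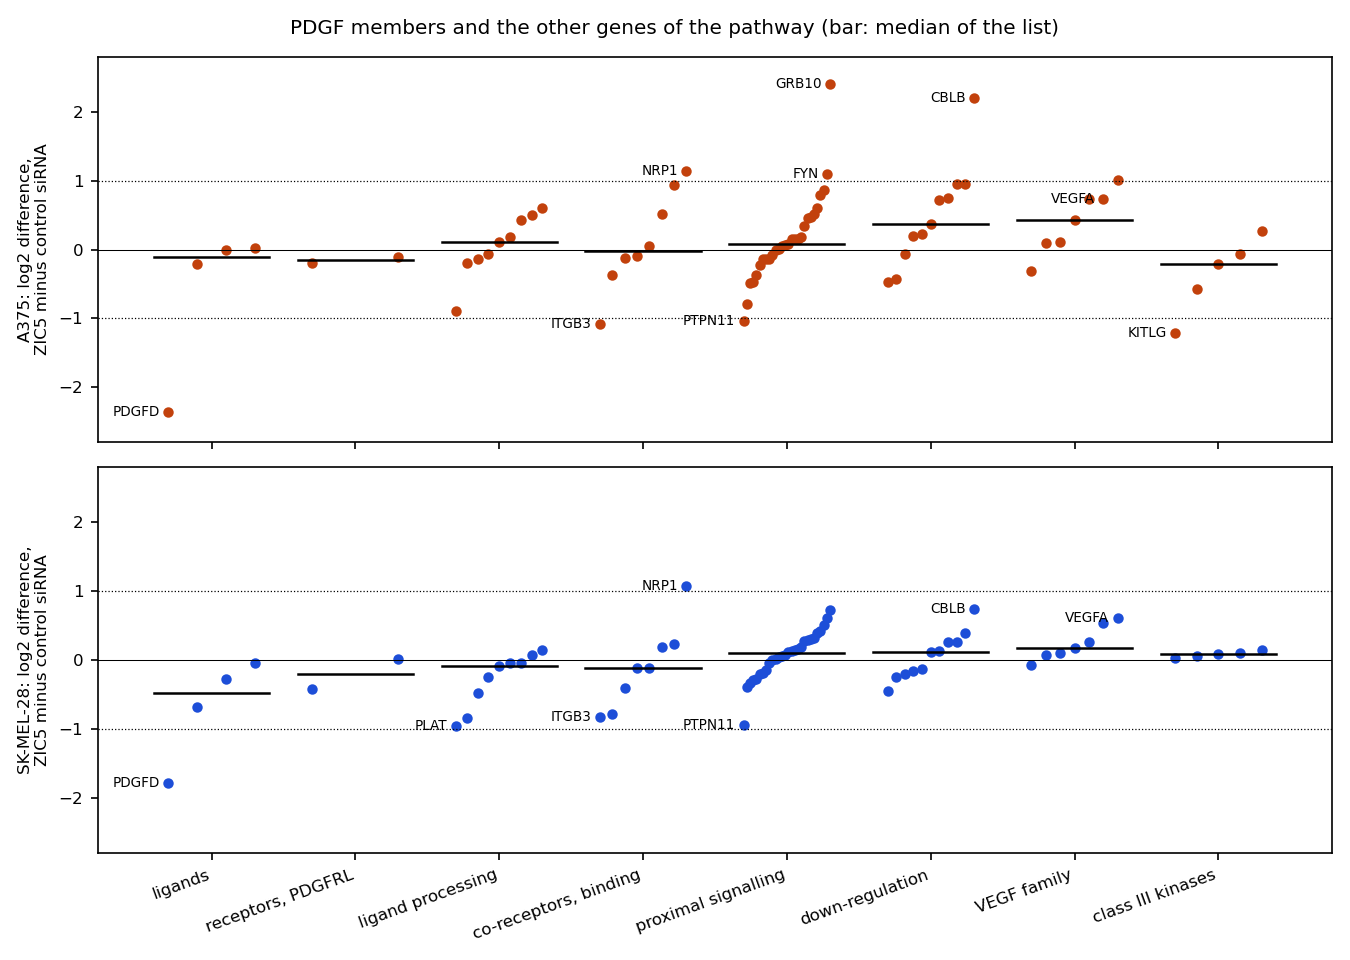
Log2 difference, ZIC5 siRNA minus control siRNA (vertical axis), of the analysed members and of the other pathway genes by list, in A375 (upper panel) and SK-MEL-28 (lower panel), with list medians as bars and dotted lines at 2-fold. PDGFD lies lowest in both panels, and NRP1 is the 1 gene above 2-fold in both.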

How the data were processed

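For each array the authors deposited intensity values of probe sets on a linear scale, and per the submitters' processing notes RMA and Affymetrix Expression Console were used. The starting material was 100 ng of total RNA per the labels' protocols. Versions and genome build are not given in the sources used here. Log2 was taken here. Of 54613 probe sets, 41091 named 1 gene in the platform annotation, and 1801 that named several were not used. Symbols were checked against RefSeq (GRCh38.p14), where 41037 matched and 0 changed. Each gene took its probe set of highest mean, and genes with a mean log2 of at least 5 (13794) entered 1 additive fit of siRNA and line (lmFit and eBayes with trend, limma 3.58.1, R 4.3.3) with Benjamini-Hochberg adjustment over all of them and 1 residual degree of freedom. The fit was tested on simulated data. Members, lists and tests were chosen with earlier results of these data known. Named list genes were those 2-fold different in both lines, otherwise up to 3 with the greatest mean difference. ITGB3, RGS5, CSPG4, KDR, FURIN, PCSK7 and the melanocyte lineage markers were named outside this rule, after their values were seen. The labels name no separate cultures, so a p-value here covers no spread between replicate cultures. It rests on 1 residual degree of freedom per gene, with an error variance moderated across genes (2.85 prior degrees of freedom). The number of arrays, 4, limits the precision.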

Additional observations from a re-analysis of the deposited data

Results flagged for a closer look

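PDGFC was drawn out because its siRNA differences had opposite signs in the lines, 0.022 for A375 and -0.68 for SK-MEL-28. PDGFRB was drawn out for the same reason, with -0.10 for A375 and 0.0103 for SK-MEL-28. With 1 array per group these differences between the lines were not tested. The values near 0 have no settled sign: that of PDGFC in A375 was -0.03 after quantile normalization of all probe sets.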

How the results depend on the processing

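The siRNA effect over both lines had 0 calls as reported and under each of the 10 alternatives run, which were no level filter, a minimum of 7, log2 values under 5 set to 5, quantile and cyclic loess normalization, the mean of a gene's probe sets, every probe set on its own, eBayes without trend or robust, and no cell line term. At an unadjusted p under 0.05 limma gave 1824 genes as reported. The line difference had between 3309 and 4217 genes called where genes were tested, against 3816 of 13794 as reported. The numbers tested differed, so the share called was not constant. It was 3309 of 8605 with a minimum of 7, 3423 of 19775 with no level filter and 4217 of 13849 with cyclic loess. Where every probe set was tested on its own, 4953 of 54613 were called. PDGFD ranged from -2.08 to -1.27 for the siRNA (adjusted p from 0.188 to 1) and from -1.57 to -1.21 for the line (adjusted p from 0.0124 to 0.0458). All 100 member results that could be tested kept their direction and call. The direction could not change with no level filter, no trend, robust eBayes or no cell line term, which reuse the same values. The same holds for every probe set on its own, scored here on each gene's brightest probe set. There the second probe sets of PDGFA and PDGFD had limma adjusted p of 0.179 and 0.0764 for the line. With a minimum of 7 no member was tested, and PDGFB fell under the minimum with the mean of its probe sets. Within a line, 5 of 48 alternative values changed sign, for PDGFA, PDGFB and PDGFC, all of them under 2-fold before and after. The fit with a line term already pairs the arrays within each line, and the labels give no replicate numbers for another pairing. Dim probe sets, those of ZIC5 and PDGFRA among them, cannot show a difference reliably at this level.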

Other observations

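Relatives of the PDGF family were also read. Of 7 VEGF ligands and receptors at the level minimum, 6 were higher with ZIC5 siRNA in each line. Over all genes that share was 48.5% for A375 and 50.2% for SK-MEL-28. VEGFA, the main angiogenic ligand, had 1535 with ZIC5 siRNA and 919 with control siRNA in A375, and 1116 with ZIC5 siRNA and 730 with control siRNA in SK-MEL-28. Its limma mean was 0.68 (SE 0.15, adjusted p = 0.302), with 4 of 4 probe sets higher in each line. VEGFC, a lymphatic growth factor, was at 1.01 for A375 and 0.26 for SK-MEL-28, and PGF, the placental growth factor, at 0.74 and 0.08. Of the 2 PGF probe sets at the level minimum, only 1 was higher in each line. The receptor KDR, counted among the 6, was under 32 on both SK-MEL-28 arrays (28.4 with ZIC5 siRNA and 19.6 with control siRNA). The median over the list was 0.43 for A375 and 0.18 for SK-MEL-28.

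Among the other class III receptor kinases and their ligands, KIT and FLT3 were under the level minimum. KITLG, the ligand of KIT, had 40.4 with ZIC5 siRNA and 94.0 with control siRNA in A375 but 228 with ZIC5 siRNA and 224 with control siRNA in SK-MEL-28. CSF1 differed by -0.57 and 0.15, and IL34 by 0.27 and 0.07. The median over the list was -0.22 for A375 and 0.09 for SK-MEL-28.

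Of 12 fibroblast and pericyte markers 9 reached the level minimum, and COL1A2, COL3A1 and FAP did not. LUM, a matrix proteoglycan, had 14.9 with ZIC5 siRNA and 162 with control siRNA in A375, and 498 with ZIC5 siRNA and 875 with control siRNA in SK-MEL-28. ACTA2, smooth muscle actin, differed by -1.44 and -0.12, and MCAM, an adhesion molecule that melanoma cells also express, by -0.88 and -0.55. Of the 2 MCAM probe sets at the level minimum, 1 was higher with ZIC5 siRNA in SK-MEL-28. LUM was under the level minimum of 32 on the A375 ZIC5 siRNA array, and ACTA2 was on both SK-MEL-28 arrays (29.3 and 31.8). RGS5, a pericyte marker, was the 1 of the 9 higher with ZIC5 siRNA in both lines (0.54 and 0.31). In all, 8 of the 9 were lower in A375 and 6 were in SK-MEL-28, where 51.2% and 49.6% of all analysed genes were. The list median was -0.24 for A375 and -0.09 for SK-MEL-28. The summed intensity of the 12 genes was 1845 with ZIC5 siRNA and 2872 with control siRNA in A375, and 4731 with ZIC5 siRNA and 6750 with control siRNA in SK-MEL-28. MCAM alone made up between 41.9% and 69.7% of this sum. Without MCAM it was 1073 with ZIC5 siRNA and 1454 with control siRNA in A375, and 1528 with ZIC5 siRNA and 2045 with control siRNA in SK-MEL-28. CSPG4 was the largest remaining part in A375 (576 and 678, ZIC5 siRNA, then control siRNA) and had 507 and 682 in SK-MEL-28. The part of these markers in the PDGFD difference was not tested.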
